A study of Mus musculus with 5 samples.

Results

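The side pathways of excess glucose were examined through 10 mouse genes chosen by name: Akr1b3, Sord and Khk of the polyol and fructose route, Gfpt1 and Gfpt2 of hexosamine synthesis, Ogt and Oga of protein O-GlcNAc cycling, Hagh of methylglyoxal removal, Tkt of the pentose phosphate pathway, and the glucose-responsive gene Txnip. A gene was measured by every array probe set that the platform annotation gives to that gene alone. By this rule 8 of the 10 genes had 27 probe sets among the 45101 on the array, and 7 of them were among the 10916 genes tested. Akr1b3 and Sord are not analysed here, and Gfpt2 fell below the filter on dim genes. The RNA was total retinal RNA of mice, measured on 1 Affymetrix array for each pool of retinas. Streptozotocin, which destroys pancreatic beta cells, had been given 5 weeks earlier to the mice of diabetic replicates 1 and 2, and each of these pools combined 4 retinas from 2 mice. For diabetic replicate 3, 6 retinas came from 3 mice in which experimental diabetes had lasted 3 to 4 weeks. Control replicates 1 and 2 each held 4 retinas of 2 untreated, age-matched mice with normal blood glucose. The labels used here give neither strain, sex nor age, and each array averages the mice of its pool, so a p-value compares pools.

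When glucose exceeds what glycolysis takes up, part of it is reduced to sorbitol by aldose reductase (Akr1b3) and oxidised to fructose by sorbitol dehydrogenase (Sord), and ketohexokinase (Khk) phosphorylates fructose. Fructose 6-phosphate can also enter the hexosamine pathway through the glutamine amidotransferases Gfpt1 and Gfpt2, which leads to UDP-GlcNAc, the donor with which Ogt puts O-GlcNAc on nuclear and cytosolic proteins and which Oga takes off again. Triose phosphates give rise to methylglyoxal, a source of advanced glycation end products, which Glo1 and then Hagh (glyoxalase II) remove with glutathione. Transketolase (Tkt) links glycolysis with the pentose phosphate pathway, and Txnip, an inhibitor of thioredoxin and of glucose uptake, is a transcriptional target of the glucose-sensing factors MondoA and ChREBP with their partner Mlx. These branches have long been studied as routes by which high glucose harms the retina.

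The Txnip promoter is shown because it carries the pair of E-box-like letters that MondoA and ChREBP are known to bind, and because Txnip is the gene of the set best known as a readout of glucose. The stretch below lies at chr3:96557817-96557936 on the plus strand (RefSeq, GRCm38.p6), from 140 to 21 bases before the start site, and the capitals mark 2 copies of CACGAG with 5 bases between them.
Txnip: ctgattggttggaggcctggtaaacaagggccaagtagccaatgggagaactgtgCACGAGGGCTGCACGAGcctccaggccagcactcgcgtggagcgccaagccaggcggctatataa
On either strand, this pair with any 5 bases in the gap occurred in 1 of 32851 promoter windows of the table (0.00304%), each reaching from 250 bases before to 50 bases after a start, and that window was the one of Txnip. A pair of CACGTG with the same gap occurred in 0 of them. The CACGAG pair repeats the letters of the Txnip stretch itself, so a match in the Txnip window was certain. Pairs that mix CACGAG with CACGTG, or that differ in other letters, were not searched. The counts of these pairs therefore do not show how many promoters hold a site for MondoA or ChREBP. A single CACGTG was found in 7.15% of all windows and, among the 11 windows of the 9 listed genes of the set, in the one of Khk, at bases -71 to -66 from the start. A CCAAT box, which the Txnip stretch holds on both strands, was found in 37.4% of all windows. A match of letters is a description of the window and shows no binding.

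The arrays carried the markers of the labelled tissue: all markers with a probe set for rods (3 of 3), cones (4 of 4), bipolar cells (2 of 2), Muller glia (4 of 4) and ganglion cells (4 of 4) lay above the filter. Of 4 endothelium markers only 1 lay above the filter, and their summed signal was 3322 to 3932 in diabetic pools and 3585 to 3882 in control pools. Of 5 lens markers and 3 erythrocyte markers, 0 lay above it. Tissue from around the retina differed between pools. The summed signal of 8 skeletal muscle markers, 6 of them above the filter and none listed at 0, was 5061 to 67654 in diabetic pools and 5443 to 43991 in control pools, with the high values in diabetic replicate 3 and control replicate 2. The summed signal of 6 retinal pigment epithelium markers, 5 of them above the filter and none listed at 0, was 47463 to 73654 in diabetic pools, against 91688 to 137249 in control pools. The summed signal of 4 melanocyte markers, 3 of them above the filter, was 21566, 2468 and 13193 in diabetic replicates 1 to 3, against 4486 and 17807 in control replicates 1 and 2. For 4 microglia markers, 2 of them above the filter, it was 3979 to 5437 in diabetic pools, against 5745 to 7155 in control pools. The part of these tissues in the results below was not tested. In a bulk sample, fewer cells of a type and less RNA per cell cannot be told apart. Diabetic replicate 2 had a ratio of 3' to 5' signal of the beta-actin control probe sets of 4.32, against 2.01 to 2.71 in the other 4 arrays, and a Gapdh ratio of 0.902, against 0.784 to 0.838.

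None of the 7 tested genes of the set passed the test between diabetic and control pools, a comparison that asks how retinal transcript levels differ within weeks of diabetes. Levels are given as log2(signal + 120.6), with differences as diabetic minus control on that scale. The largest of the 7 differences was 0.09 in size, and the 95% intervals reached no lower than -0.32 and no higher than 0.40, both for Txnip. Over the whole array, 0 of 10916 genes (0%) passed an adjusted p of 0.05 (limma, Benjamini-Hochberg), and 370 (3.39%) had an unadjusted p under 0.05, none of them in the set. The diabetic and control pools did not overlap in 2 of the 7 genes, Khk and Oga, both with higher values in diabetic pools. Over all tested genes, 9.99% lay wholly higher in diabetic pools and 8.15% wholly lower. The median difference was 0.013 over the 7 genes, with 4 of 7 above 0, and 0.0060 over all tested genes, with 51.9% above 0. The range of the 7 genes over the 5 arrays was 0.11 for Ogt to 0.34 for Tkt, with a median of 0.23, where the median range of all tested genes was 0.32. Over single probe sets the median range was 0.45 for the 21 tested probe sets of the set and 0.42 for all 27022.

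**Figure D1:**
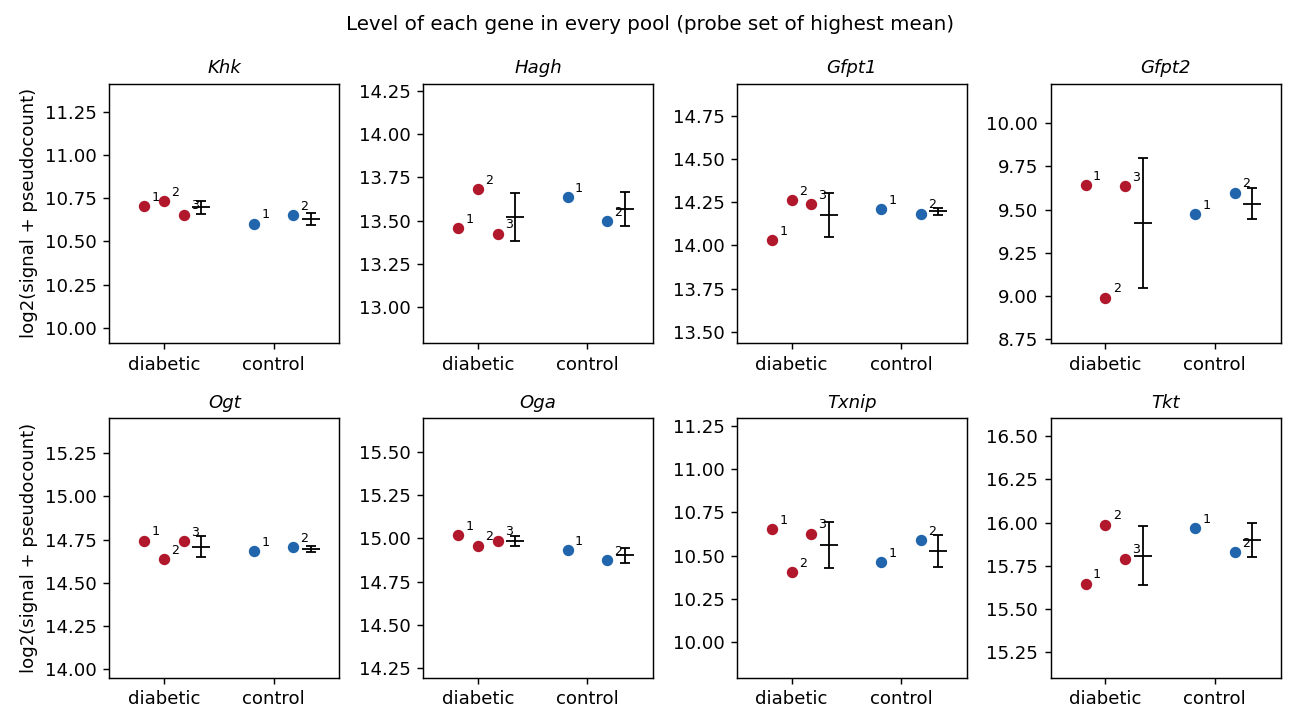
Level of each measured gene in every pool, as log2(signal + 120.6) of its probe set of highest mean, with red points for diabetic and blue points for control pools, the replicate number beside each point, and the mean with its SD as a black bar. Each panel spans the same number of log2 units, so spreads can be compared between genes. Gfpt2 has the widest spread shown, with diabetic replicate 2 at 8.99, while the probe sets shown for Ogt, Khk and Oga vary by at most 0.14 over all 5 pools. Probe sets not shown here varied more, as Ogt 1425517_s_at by 0.88 and Oga 1422901_at by 1.55.

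Of the 3 polyol and fructose genes of the set, only Khk could be tested. Khk, the kinase that commits fructose to metabolism, had signals of 1546, 1580 and 1492 in diabetic replicates 1 to 3, against 1435 and 1489 in control replicates 1 and 2. All 3 diabetic pools were higher than both controls, although the lowest diabetic and the highest control pool were nearly equal. On the log2 scale the difference was 0.07 (SE 0.14, 95% interval -0.25 to 0.39, limma adjusted p = 0.999). Its range over the 5 pools was among the narrowest of the tested genes, at their 6.30th percentile.

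Gfpt1, the rate-limiting glutamine:fructose-6-phosphate amidotransferase of hexosamine synthesis, had 6 probe sets, of which only 1428715_at lay above the filter. That probe set had signals of 16591, 19499 and 19196 in diabetic replicates 1 to 3, against 18828 and 18494 in control replicates 1 and 2. Diabetic replicate 1 was the lowest pool and diabetic replicate 2 the highest, so the controls lay within the diabetic range. The difference was -0.02 (SE 0.09, 95% interval -0.23 to 0.19, limma adjusted p = 0.999).

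The 5 other Gfpt1 probe sets had signals between 29 and 476 and followed other patterns. Probe set 1420080_a_at had signals of 181, 243 and 476 in diabetic replicates 1 to 3, against 227 and 456 in control replicates 1 and 2. Its high pools were diabetic replicate 3 and control replicate 2, the pools of high skeletal muscle signal. Probe set 1449725_at was highest in the same pools, at 180 and 151, with all its signals (29 to 180) around or below the added 120.6. Highest in diabetic replicate 3 (439) was also 1449268_at, with control replicate 2 (279) close to diabetic replicate 1 (263). By contrast, 1444329_at was highest in diabetic replicate 1 (208) and control replicate 1 (209), pools of low muscle signal. Diabetic replicate 2, also of low muscle signal, was its lowest pool (39), below diabetic replicate 3 (124) and control replicate 2 (144). Skeletal muscle is known to make a splice form of Gfpt1 with an extra exon, but the sources used here do not say which form these probe sets match, and the part of muscle tissue in these values was not tested. Probe set 1418904_at had signals of 47, 29 and 30 in diabetic replicates 1 to 3, against 141 and 78 in the controls, without overlap, near or below the pseudocount of 120.6 and untested.

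Gfpt2, the second enzyme of that step, had a single probe set, whose mean level lay under the limit of 9.70 for the gene test but above the limit of 8.96 for the test over single probe sets. Its signals were 678, 388 and 675 in diabetic replicates 1 to 3, against 590 and 654 in control replicates 1 and 2. Diabetic replicate 2 was low, while the other 2 diabetic pools were slightly higher than both controls. Among the 27022 probe sets tested, its difference was -0.11 (SE 0.27, 95% interval -0.72 to 0.50, limma adjusted p = 1). Without diabetic replicate 2 the difference was 0.10 (SE 0.22).

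Ogt, the transferase of O-GlcNAc, was represented by probe set 1460631_at. Signals were 27333, 25372 and 27255 in diabetic replicates 1 to 3, against 26181 and 26634 in control replicates 1 and 2. The pools overlapped and lay within 0.11 log2 units of each other, a range at the 3.56th percentile of the tested genes. The Ogt difference of 0.013 (SE 0.07) had the interval -0.15 to 0.18 (limma adjusted p = 0.999).

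Oga, the hydrolase that removes O-GlcNAc, was represented by probe set 1433654_at. Here the signals were 33027, 31711 and 32340 in diabetic replicates 1 to 3, against 31099 and 29866 in control replicates 1 and 2. All diabetic pools were higher than both controls by a small margin, a difference of 0.09 (SE 0.07, 95% interval -0.07 to 0.24, limma adjusted p = 0.999). A second Oga probe set, 1437129_at, separated the pools in the opposite direction, with signals of 2687, 2521 and 2545 in diabetic replicates 1 to 3, against 3350 and 3492 in control replicates 1 and 2. Its difference was -0.39 (SE 0.12, 95% interval -0.67 to -0.11, unadjusted p = 0.0117, and adjusted p = 1 over all probe sets in limma). It was the only one of 21 tested probe sets of the set with an unadjusted p under 0.05, a share that was 2.88% over all probe sets. Groups did not overlap in 2 higher and 1 lower of the 21 probe sets, against 8.19% higher and 8.99% lower of all probe sets. With any single array left out the difference of 1437129_at lay between -0.42 and -0.36. That probe set was taken up as the Oga probe set of smallest unadjusted p in limma, and its groups did not overlap. Leaving out 1 array could therefore not change its sign, and this range is no independent support. The sources used here do not say which parts of the Oga transcript the probe sets match.

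**Figure D2:**
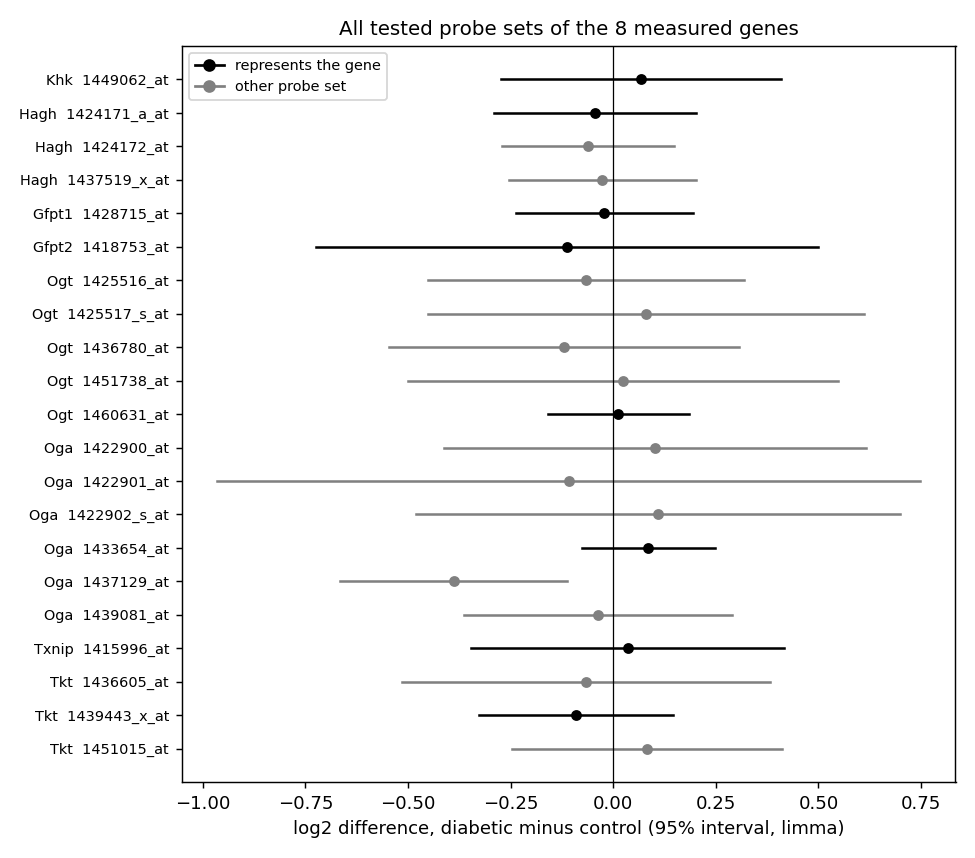
Log2 difference, diabetic minus control, of all 21 tested probe sets of the 8 measured genes, with the 95% interval from limma as a line. Black marks the probe set that represents its gene and grey the others. The interval of Oga 1437129_at, from -0.67 to -0.11, is the only one that leaves out 0.

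Several other probe sets of Ogt and Oga were low in diabetic replicate 2. Of the 5 tested Ogt probe sets all 5 had their lowest value in that array, and of the 6 Oga probe sets 4 did. Diabetic replicate 2 was the lowest array in 11 of the 21 tested probe sets of the set (52.4%) and in 28.8% of all probe sets tested, and the probe sets of a gene are not independent. It was also the highest array in 7 of the 21 (33.3%, against 24% of all), and diabetic replicate 1 was the highest in 10 (47.6%, against 23.3%). Diabetic replicate 2 had the lowest median signal, 634.6, against 693.9 to 714.7 in the other arrays. Oga 1422901_at had signals of 7305, 2407 and 5347 in diabetic replicates 1 to 3, against 5089 and 4772 in the controls, which put diabetic replicate 2 at -1.17 relative to the mean log2 level of the other 4 arrays. Ogt 1425517_s_at had 8371, 4491 and 7490 in diabetic replicates 1 to 3, against 6467 and 5945 in the controls, with diabetic replicate 2 at -0.63 on the same measure. The representing probe sets deviated less, with diabetic replicate 2 at -0.08 for Ogt and 0.0069 for Oga. Over all tested probe sets the same deviation ran from -0.62 at the 5th to 0.39 at the 95th percentile. Among 426 genes with 5 or more tested probe sets, the spread of this deviation within a gene was 1.20 for Oga, at the 89th percentile, and 0.55 for Ogt, at the 24.6th. Diabetic replicate 2 also had the highest beta-actin ratio of all arrays, and the part of RNA quality in these values was not tested.

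Without diabetic replicate 2, where single probe sets were read after the values above were seen, 4 of 6 Oga probe sets and 2 of 5 Ogt probe sets lay higher in both remaining diabetic pools than in both controls. Over the 21 probe sets of the set, 9 were wholly higher and 4 wholly lower, against 18.5% and 17.6% of all probe sets. The differences were 0.41 (SE 0.11) for Oga 1422902_s_at, 0.35 (SE 0.11) for Oga 1422900_at and 0.35 (SE 0.10) for Ogt 1425517_s_at, with limma adjusted p of 0.80, 0.837 and 0.833. With all arrays the same differences were 0.11 (SE 0.26), 0.10 (SE 0.22) and 0.08 (SE 0.23). The representing probe sets differed less without diabetic replicate 2, by 0.047 (SE 0.07) for Ogt and 0.10 (SE 0.07) for Oga. Oga 1437129_at remained lower in diabetic pools without that array, by a difference of -0.37 (SE 0.12). In this limma fit 4 of the 21 tested probe sets had an unadjusted p under 0.05, against 5.71% of all probe sets. Of these, 3 were probe sets of Oga, which are not independent, and 1437129_at among them was lower in diabetic pools. The array was left out after its low values were seen, so differences had to rise where it was low. These counts are therefore no independent support for a difference.

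**Figure D3:**
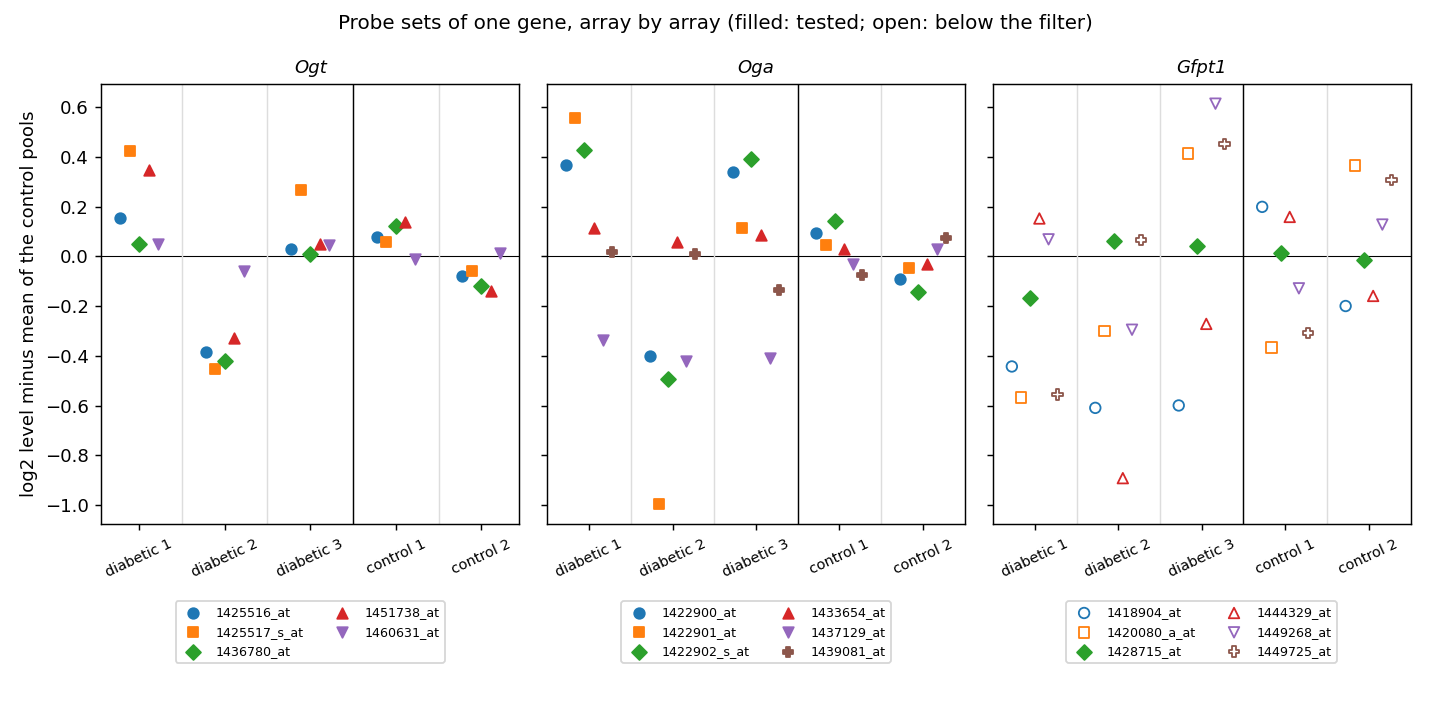
Every probe set of Ogt, Oga and Gfpt1 in each array, as its log2 level minus the mean of the control pools, with filled symbols for tested probe sets and open symbols for those below the filter. In diabetic replicate 2 most Ogt probe sets and 3 Oga probe sets lie low, down to Oga 1422901_at, while Oga 1437129_at lies below the controls in all 3 diabetic pools. The open Gfpt1 symbols of 1420080_a_at and 1449725_at lie high in diabetic replicate 3 and control replicate 2. Those of 1444329_at are highest in diabetic replicate 1 and control replicate 1 and lowest in diabetic replicate 2.

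Hagh, which hydrolyses the glutathione thioester formed by Glo1 to lactate and free glutathione, had 3 tested probe sets. The representing probe set 1424171_a_at had signals of 11124, 13017 and 10864 in diabetic replicates 1 to 3, against 12596 and 11431 in control replicates 1 and 2. Diabetic replicate 2 was the highest pool and diabetic replicate 3 the lowest, with both controls in between. The difference was -0.04 (SE 0.10, 95% interval -0.28 to 0.19, limma adjusted p = 0.999), and the other 2 probe sets differed by -0.06 and -0.03. Glo1, the enzyme of the preceding step, had log2 levels of 14.67, 14.53 and 15.48 in diabetic replicates 1 to 3, against 14.12 and 14.12 in the controls.

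Tkt, the thiamine-dependent transketolase, had 3 tested probe sets. The representing probe set 1439443_x_at, of a type whose probes may also match other transcripts, had signals of 51203, 64816 and 56575 in diabetic replicates 1 to 3, against 63934 and 58109 in control replicates 1 and 2. The diabetic pools spanned both controls, and the difference was -0.09 (SE 0.10, 95% interval -0.32 to 0.14, limma adjusted p = 0.999). Probe set 1451015_at had 16462, 19816 and 13620 in the diabetic pools and 15217 and 15843 in the control pools, a difference of 0.08 (SE 0.14). In that probe set and in 1436605_at, which differed by -0.07 (SE 0.20), diabetic replicate 2 was the highest array and diabetic replicate 3 the lowest. The 3 probe sets thus differed in sign, each by less than its error.

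Txnip, the gene whose promoter is printed above, had signals of 1489, 1235 and 1460 in diabetic replicates 1 to 3, against 1289 and 1421 in control replicates 1 and 2. Diabetic replicates 1 and 3 were slightly higher than both controls and diabetic replicate 2 was lower than both. Diabetic pools averaged 10.56 ± 0.14 (SD, n = 3) and control pools 10.53 ± 0.09 (SD, n = 2) on the log2 scale, and the fitted difference was 0.04 (SE 0.16, 95% interval -0.32 to 0.40, limma adjusted p = 0.999). As a ratio of diabetic to control on the same scale, the interval spans 0.799 to 1.32, which does not show that the groups are equal. The second Txnip probe set, 1415997_at, had signals of 20 to 109, below the pseudocount in all 5 arrays, and was not tested.

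Within arrays of like skeletal muscle signal, diabetic replicate 3 minus control replicate 2 gave differences between -0.07 (Hagh) and 0.11 (Oga) over the 7 tested genes. On the low side, diabetic replicates 1 and 2 (averaged) minus control replicate 1 gave differences between -0.15 (Tkt) and 0.11 (Khk). Oga had 0.11 on the high side and 0.06 on the low side, and Txnip 0.04 and 0.07. Hagh had -0.07 on both sides, while Gfpt1 had 0.05 on the high side and -0.07 on the low side. The pool of shorter diabetes, diabetic replicate 3, differed from the mean of the 2 pools at 5 weeks by -0.15 for Hagh, 0.09 for Gfpt1 and 0.10 for Txnip. One pool of shorter duration allows no test, and that pool also differs in its number of mice and in its muscle signal.

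The genes around these steps were followed in 7 lists of 58 genes, which hold the 10 genes of the set, with 41 tested, 11 below the filter and 6 without a probe set listed for them alone. None of the 41 passed the test over all genes. Their median difference was 0.013, with 22 higher and 19 lower, and the pools did not overlap in 6 higher and 2 lower genes, against 9.99% higher and 8.15% lower of all tested genes. Of all tested genes 51.9% were higher. By list, the number of higher among tested genes was 2 of 2 for polyol and fructose genes (median 0.08), 3 of 9 for hexosamine synthesis and salvage (-0.02) and 2 of 3 for O-GlcNAc cycling (0.013). It was 3 of 6 for the sialic acid branch (0.017), 3 of 6 for methylglyoxal and glycation genes (0.018), 5 of 6 for the pentose phosphate pathway (0.04) and 4 of 9 for glucose sensing (-0.015).

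Beside Khk, the polyol and fructose list had 1 other tested gene, Fn3k, the kinase that acts on fructosamines of glycated proteins, which differed by 0.09 (SE 0.18). Downstream of Gfpt1, Pgm3, the mutase that forms GlcNAc 1-phosphate, differed by -0.29 (SE 0.25), and Amdhd2, a deacetylase that returns GlcNAc 6-phosphate towards glycolysis, by -0.26 (SE 0.27). Groups overlapped in these 3 genes. Eogt, which puts O-GlcNAc on secreted and membrane proteins in the endoplasmic reticulum, had log2 levels of 11.29, 11.56 and 11.54 in diabetic replicates 1 to 3, against 11.72 and 11.70 in control replicates 1 and 2. It was lower in every diabetic pool, with a difference of -0.25 (SE 0.13, 95% interval -0.54 to 0.04, limma adjusted p = 0.999).

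In the sialic acid branch, which starts from UDP-GlcNAc, Gne, the enzyme of its first steps, differed by 0.21 (SE 0.16). Npl, the lyase that breaks sialic acid down to N-acetylmannosamine, was at 12.54, 12.10 and 11.20 in diabetic replicates 1 to 3, against 10.35 and 10.89 in the controls. Its difference of 1.32 (SE 0.34, limma adjusted p = 0.999) stood beside 1.96 between the mean of diabetic replicates 1 and 2 and control replicate 1, and 0.31 between diabetic replicate 3 and control replicate 2.

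Among glycation genes, Lgals3, which encodes galectin-3, a binder of advanced glycation end products, was at 10.49, 10.46 and 10.69 in diabetic replicates 1 to 3, against 10.13 and 10.36 in the controls. The difference was 0.30 (SE 0.17, 95% interval -0.08 to 0.68), with no overlap between groups. Glo1 differed by 0.77 (SE 0.24, limma adjusted p = 0.999), with 1.35 between diabetic replicate 3 and control replicate 2 and 0.48 on the other side. The groups overlapped in 2 of its 3 other probe sets, where the difference on that other side was 0.21 and -0.13.

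In the pentose phosphate pathway Pgd, the second dehydrogenase, differed by 0.23 (SE 0.15) and Taldo1, the transaldolase that works beside Tkt, by 0.11 (SE 0.13). Of the glucose sensing genes, Mlxip, which encodes MondoA, differed by -0.31 (SE 0.21) and the hexokinase gene Hk2 by 0.14 (SE 0.08, 95% interval -0.04 to 0.32). The groups overlapped in all 4 genes.

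**Figure D4:**
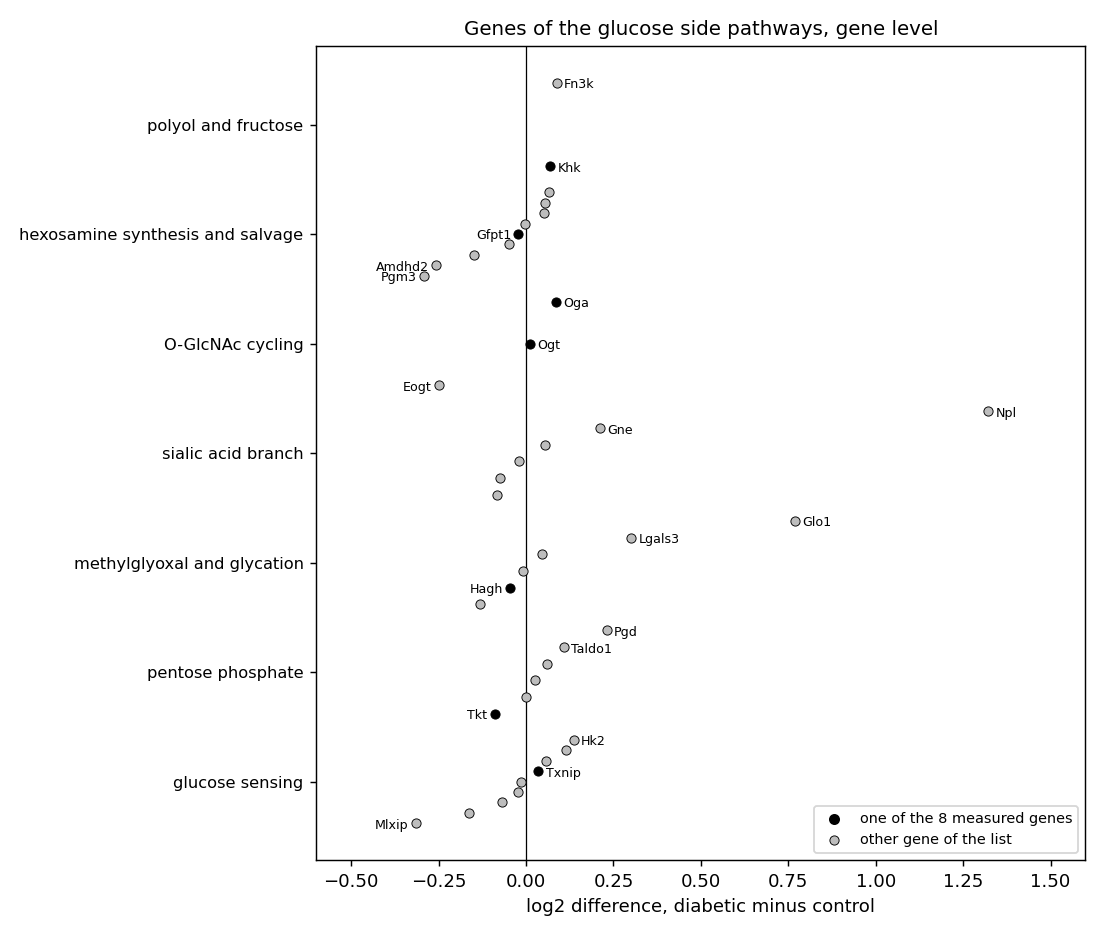
Log2 difference, diabetic minus control, of the 41 tested genes in the 7 lists, 1 point per gene, with black points for genes of the set and grey points for the other genes. The black points lie between -0.09 and 0.09, and Npl at 1.32 and Glo1 at 0.77 lie farthest from 0, although neither passed the test over all genes.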

How the data were processed

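The authors deposited 1 linear signal intensity for every probe set on every array. The software behind them is not given in the sources used here. All 5 columns had a mean of 2500.0 without the lowest and highest 2% of values, as global scaling by the authors gives, and medians of 634.6 to 714.7. Symbols came from the platform annotation, updated by Entrez ID through a RefSeq table. Signals were taken as log2(signal + 120.6), the 20th percentile of all values, which understates differences of dim genes. Where a gene had several probe sets, the one of highest mean level stood for it, and the upper 60% by mean level were tested with limma 3.58.1 (lmFit, eBayes with a trend, R 4.3.3) and Benjamini-Hochberg adjustment at 0.05, with 3 residual degrees of freedom. The same fit was run over single probe sets. Alternatives were other pseudocounts, quantile normalization, centring on medians, no filter or the upper 40%, other variance settings, blocks for replicate number and skeletal muscle signal, the mean or median over probe sets, and leaving out each array. Added after values were seen were the alternatives for 1 Oga probe set, the one of smallest unadjusted p, and the reading of single probe sets of the set without diabetic replicate 2. The fit was tested on simulated data. Plots were made with matplotlib 3.10.9.

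The genes and lists were chosen with earlier results of these data known, so no list test was made. Named were all genes of the set, in each list the 2 other genes of smallest unadjusted p, and any without overlap that differed by 0.3 or more. The number of arrays limits the precision.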

Additional observations from a re-analysis of the deposited data

Results flagged for a closer look

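In probe sets outside the gene comparison, the beta-actin controls of diabetic replicate 2 had a ratio of 3' to 5' signal of 4.32, against 2.52 and 2.71 in control replicates 1 and 2. Its Gapdh ratio was 0.902, against 0.822 and 0.811 in the controls.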

How the results depend on the processing

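Of 17 alternatives, 14 left the count of genes past the threshold at 0. It was 2 with the replicate block (Rgr and Spc25) and 0 to 1 with single arrays left out (Prss22 without diabetic replicate 2 and Spc25 without diabetic replicate 3). The count of probe sets was 10 with the replicate block and 0 to 3 with single arrays left out, none of them of the set. Between pools of like replicate number, the correlations of deviations across genes were 0.131 and -0.141. With 2 controls, both correlations rest on the same contrast between these controls, so they cannot decide whether the pools were paired. The block leaves diabetic replicate 3, which has no partner, out of the comparison. The median over the 7 tested genes, 0.013, was 0.056 with arrays centred on medians. It was -0.022 with the upper 40% of genes tested and -0.025 with the mean over probe sets, each over the 5 genes left, and -0.0060 to 0.047 with single arrays left out. Of 113 values of single genes, 0 passed the threshold, none exceeded 0.18 in size and 15 changed sign. Gfpt1 was at 0.022 with centring and between -0.064 and 0.052 with single arrays left out, above 0 without diabetic replicate 1. Hagh was at 0.0041 with the replicate block and without diabetic replicate 3, and between -0.125 and 0.025 with single arrays left out, highest without control replicate 1. Oga was at -0.039 with the mean over probe sets. Ogt was at -0.0044 with quantile normalization, -0.0039 with the replicate block and without diabetic replicate 3, -0.014 with the mean and -0.066 with the median over probe sets, and between -0.0060 (without diabetic replicate 1) and 0.047 with single arrays left out. Tkt was at 0.082 with the median over probe sets, and between -0.179 (without diabetic replicate 2) and -0.0094 (without diabetic replicate 1) with single arrays left out, with -0.159 without control replicate 2 and -0.021 without control replicate 1. Txnip lay between -0.029 (without control replicate 1) and 0.113 with single arrays left out, and at -0.010 where diabetic replicate 1 was dropped. Oga 1437129_at stayed below 0 in 15 of 15 alternatives, from -0.42 to -0.33. It had been picked for its small p and had no overlap between groups, so this steadiness is no independent support. Fits without a control array leave 1 control, assumed to vary like the other pools.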

Other observations

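Related genes below the filter on dim genes, chosen for mention after their values were seen, were measured but not tested. Arrdc4, an arrestin-domain paralogue of Txnip that shares its glucose-sensing regulators, was at log2 levels of 8.77, 8.99 and 8.54 in diabetic replicates 1 to 3, against 8.58 and 8.08 in control replicates 1 and 2. Mlxipl, which encodes ChREBP, was at 8.89, 7.28 and 8.64 in diabetic pools and at 7.95 and 8.62 in control pools. Akr1b10, an aldose reductase relative, was at 9.47, 9.49 and 9.69 in diabetic pools and at 9.51 and 9.20 in control pools, and Akr1b8 at 9.32, 8.95 and 9.08 in diabetic pools and at 9.32 and 9.41 in control pools. Groups overlapped in Arrdc4, Mlxipl and Akr1b10, and Akr1b8 was lower in each diabetic pool than in both controls (diabetic replicate 1 and control replicate 1 were nearly equal). Tktl2 and Shpk of the pentose phosphate list were also wholly lower, with differences of means of -0.81 and -0.60, against -0.25 for Akr1b8. Tktl2 was at 7.16, 7.90 and 8.03 in diabetic replicates 1 to 3, against 8.09 and 8.93 in the controls. Shpk was at 7.25, 8.40 and 8.32 in diabetic pools and at 8.49 and 8.68 in control pools. In both genes diabetic replicate 1 was the lowest pool. Over all tested genes 8.15% lay wholly lower, and the share among genes below the filter was not counted.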
